A study of Mus musculus with 6 samples.

Results

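The genes described here are 32 imprinted genes, chosen by name from the 26147 genes of the table. All 32 were found, each on 1 row. Of them 10 are known as maternally expressed, 20 as paternally expressed and 2 (Grb10 and Gnas) as differing by tissue. The list was drawn up with the wild-type and Tbx3 conditional knockout (cKO) values of this table already known, so differences between those groups are given as a description and support nothing about the list as a whole. The measurements are polyadenylated RNA of isolated mouse retina at embryonic day 13.5, on a C57BL/6J background, in 3 wild-type and 3 cKO libraries. The wild types were siblings that carried no Dkk3-Cre, with 1 floxed and 1 normal Tbx3 allele. The knockouts carried the Dkk3-Cre transgene, which acts in retinal progenitors, and were Tbx3 ∆Fl/∆Fl. No Cre-positive control was among the groups, so Cre and the loss of Tbx3 cannot be told apart. The number of embryos per library is not stated, so p-values measure only the spread between these libraries, part of which may be technical.

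Imprinted genes are read from 1 parental copy, and the other copy is kept silent by DNA methylation or by a noncoding RNA set at a shared control region. Many of them act on the growth of the fetus. Insulin-like growth factor 2 (Igf2) is the main fetal growth factor among those expressed from the paternal copy, its neighbour H19 is a long noncoding RNA of the maternal copy, and Igf2r and Grb10 restrain growth signalling. H19 and Igf2 are known as abundant transcripts of embryonic mesenchyme, which surrounds the eye. All alleles came from 1 strain and the values are per gene, so the parental copy that gave a transcript was not measured.

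Several members are hosts of microRNAs, and those of the 3 genes with the largest part in the results are shown. H19 holds 1 hairpin, Igf2 holds 1 and Mirg holds 10, in the RefSeq annotation of GRCm38.p6. Only the polyadenylated host transcripts were measured, not the microRNAs. The mature sequences are from RefSeq (GRCm38.p6), written 5′ to 3′, and capitals mark the seed, bases 2 to 8.
mmu-miR-675-5p, in H19, chr7:142577112-142577133, minus strand: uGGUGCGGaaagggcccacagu
mmu-miR-675-3p, in H19, chr7:142577078-142577099, minus strand: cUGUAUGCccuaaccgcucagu
mmu-miR-483-5p, in Igf2, chr7:142654968-142654989, minus strand: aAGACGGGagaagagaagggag
mmu-miR-483-3p, in Igf2, chr7:142654932-142654952, minus strand: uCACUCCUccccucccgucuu
mmu-miR-453, in Mirg, chr12:109735669-109735692, plus strand: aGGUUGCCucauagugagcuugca
mmu-miR-496a-5p, in Mirg, chr12:109739132-109739152, plus strand: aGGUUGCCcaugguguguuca
The H19 and Igf2 microRNAs have 4 different seeds. The Mirg sequences shown are the 2 of its 19 mature microRNAs that share a seed, GGUUGCC.

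The libraries held an estimated 21482152 to 27174646 reads. Values are normalized read counts, and a listed 0 can hide as many as 3 reads (2.69 to 3.41 in these units, counting error only). Tbx3 was 2378 ± 329 in wild type against 49.0 ± 9.38 in cKO (SD, n = 3 each), a 48.5-fold difference with an adjusted p of 0.000342 by limma. Retinal progenitor genes (Rax, Six3, Six6, Pax6, Lhx2 and others) were present in every library, with 12 of 12 markers tested. Their summed value was 62825 in cKO 3 against 138734 to 215003 in the other 5. Single markers differed. Rax, Six3 and Six6 were also lowest in cKO 3, but Pax6 was highest there (18941) and Lhx2 (7402) lay above every wild-type library. Summed markers of ganglion cells and other neurons were 152482, 29614 and 49102 in wild type against 23976, 12690 and 2474 in cKO. Wild type 1 and cKO 3 thus stood apart, and results are also given with both left out. Fewer cells of a type and less RNA per cell cannot be told apart in whole retina.

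Across the module no member passed the test, and the fitted differences of maternally expressed genes were positive while those of paternally expressed genes had both signs. Of the 32 members, 29 had values of 10 or more in 3 or more libraries and were fitted. Phlda2, Slc22a18 and Ascl2 did not. None of the 29 passed an adjusted p of 0.05 by limma over all 18914 genes tested, of which 0.0634% passed, and their adjusted p ran from 0.312 to 0.958. At an unadjusted p under 0.05 stood 5 members, 3 higher (6.39% of all genes) and 2 lower (7.16%), or 17.2% beside 13.5% of all genes tested. All 7 fitted maternally expressed genes had a positive log2 difference, with a median of 0.91, and the 20 paternally expressed genes had 10 positive and 10 negative, with a median of 0.005. The median over all genes tested was -0.02. Of the 7 maternal genes, 3 (Meg3, Rian and Mirg) are neighbours in 1 cluster, so they do not count as separate cases. The maternal median was 0.489 without wild type 3, and the sign of Igf2r changed in 5 of 17 alternative fits. Of these 7 genes 6 overlapped between the groups. Beside them, all 18 fitted mesenchyme markers (median 1.29) and all 10 red cell markers (median 2.60) had positive log2 differences, and their part in the maternal values was not tested. The wild-type and cKO values did not overlap for 8 of 29 members (27.6%), beside 22.4% of all genes tested. They were 3 higher members (Mirg, Kcnq1ot1 and Impact) beside 10.6% of all genes, and 5 lower ones (Plagl1, Nnat, Peg13, Ndn and Gnas) beside 11.7%. With fewer libraries there is less room to overlap, and the higher count was 7, 7 and 8 without wild type 1, wild type 2 or cKO 1, while the lower count was 8 without wild type 1. The share over all genes was not counted in those fits, so these counts have no background beside them. The highest value of a member was in cKO 3 for 14 of 29 and in wild type 1 for 7. The lowest was in wild type 1 for 10 of 29.

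**Figure D1:**
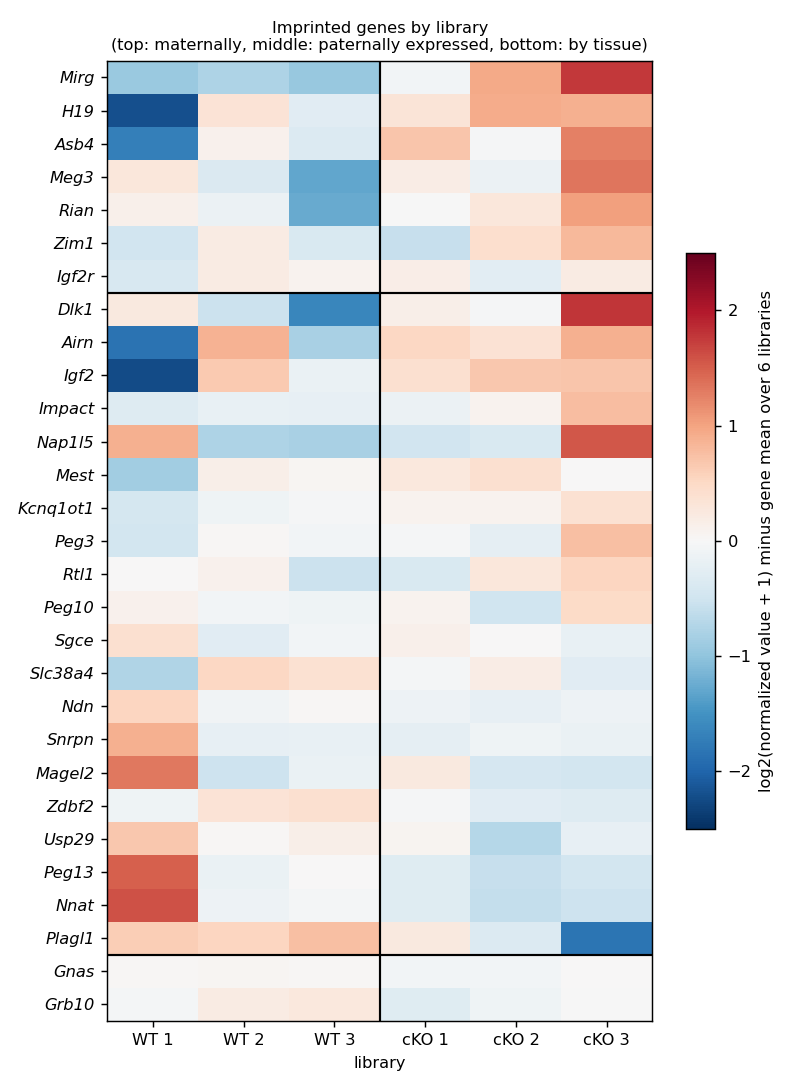
Rows are the 29 fitted imprinted genes and columns the 6 libraries, and colour is log2(normalized value + 1) minus the mean of that gene over the 6 libraries. Wild type 1 held the highest value of 7 members and the lowest of 10, and cKO 3 held the highest of 14.

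**Figure D2:**
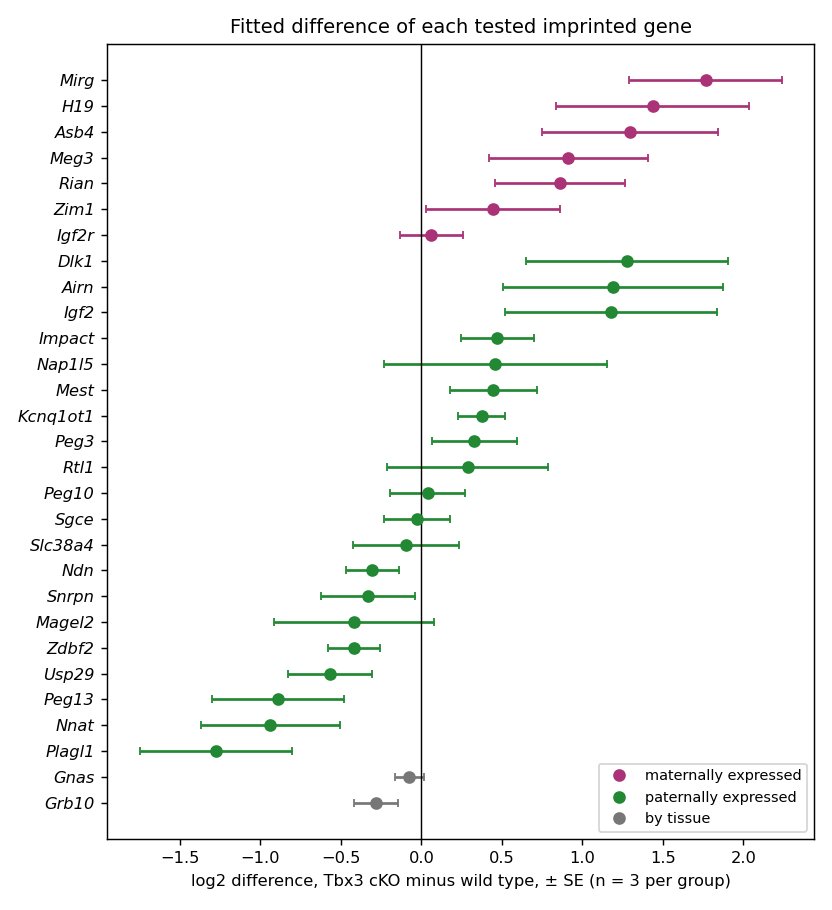
Points are the fitted log2 difference of each gene, Tbx3 cKO minus wild type, and bars are ± 1 SE (n = 3 per group). All 7 maternally expressed genes lie right of 0, and the 20 paternally expressed genes are split 10 to 10.

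The noncoding H19 and its neighbour Igf2, the growth factor ligand gene, were lowest in wild type 1. H19 (ENSMUSG00000000031) was 6770, 39265 and 25490 in wild type 1 to 3 and 39026, 59388 and 57962 in cKO 1 to 3. Wild type 1 was the low library, and the groups overlapped because wild type 2 lay just above cKO 1. The means were 23841 ± 16310 and 52125 ± 11370 (SD, n = 3 each), a 2.19-fold difference, and the fitted log2 difference was 1.44 (SE 0.60). Igf2 (ENSMUSG00000048583) was 3223, 23883 and 13644 in wild type against 20030, 24300 and 24868 in cKO. Again wild type 1 was far below the rest and wild type 2 lay within the cKO range. The log2 difference of Igf2 was 1.18 (SE 0.66). Without wild type 1 the log2 differences were 0.70 for H19 and 0.35 for Igf2, and with cKO 3 also left out they were 0.61 and 0.29.

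Within a library H19 and Igf2 kept close to 1 ratio while each varied widely. The ratio of their values was 2.10, 1.64 and 1.87 in wild type against 1.95, 2.44 and 2.33 in cKO, a 1.49-fold span. Over the wild-type libraries alone H19 spanned 5.80-fold and Igf2 7.41-fold. The 2 highest ratios were those of cKO 2 and cKO 3.

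Mesenchyme markers moved with H19 and Igf2 in some libraries and not in others. The list holds 20 genes of periocular and other mesenchyme, among them collagens (Col1a1, Col1a2, Col3a1), Pdgfra, Twist1, Prrx1 and Foxc1. Of 19 in the table none was at 0 in every library, and Thy1 was at 0 in at least 1 library and under 10 in all. Their summed value was 3501, 14887 and 7738 in wild type against 14242, 8109 and 26798 in cKO. Wild type 1 was lowest here too, and cKO 3 was highest. All 18 fitted markers had a positive log2 difference, with a median of 1.29, and none passed limma over all genes, with 2 at an unadjusted p under 0.05. Single markers are named here after their values were seen. Collagen gene Col3a1 was 105, 1610 and 849 in wild type against 2339, 814 and 5454 in cKO. Col1a1, Lum, Prrx1 and Foxc1 were also highest in cKO 3, but Pdgfra and Twist1 were highest in wild type 2. Pdgfra was 63.5, 886 and 343 in wild type against 335, 511 and 744 in cKO.

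Set library by library, wild type 2 and cKO 1 had similar marker sums (14887 and 14242) and similar H19 (39265 and 39026), and Igf2 was 23883 and 20030. Wild type 3 and cKO 2 also had similar sums (7738 and 8109), but H19 was 25490 in the one and 59388 in the other, and Igf2 was 13644 and 24300. Single markers did not all match in these pairs. Between wild type 3 and cKO 2, Col1a1 (368 and 341) and Col3a1 (849 and 814) were close, but Lum was 187 and 429. Between wild type 2 and cKO 1, Col1a1 was close (1266 and 1152), but Pdgfra was 886 and 335. The sum is only a rough gauge. From wild type 2 to wild type 1 it fell from 14887 to 3501, while Lum fell from 594 to 14.9 and Twist1 from 391 to 13.1. Col1a1, Col3a1, Lum, Pdgfra, Twist1, Prrx1 and Foxc1 together made up a small part of the wild type 1 sum. The ratio of H19 to the summed markers was 1.93, 2.64 and 3.29 in wild type against 2.74, 7.32 and 2.16 in cKO. Apart from cKO 2 this ratio overlapped between the groups. For Igf2 it was 0.921, 1.60 and 1.76 in wild type against 1.41, 3.0 and 0.928 in cKO, with cKO 2 again highest. The part of mesenchyme in the H19 and Igf2 differences was not tested beyond these values.

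**Figure D3:**
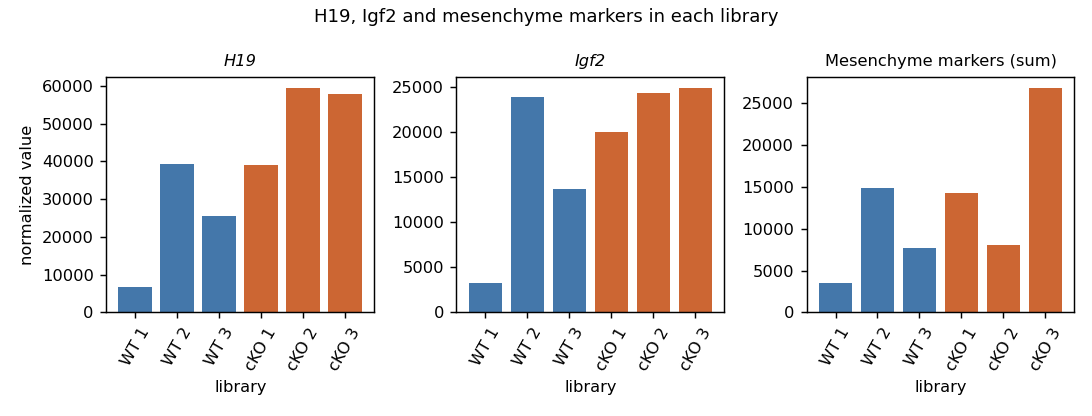
Bars are normalized values for H19, Igf2 and the sum of 19 mesenchyme markers, in 3 wild-type (blue) and 3 Tbx3 cKO (orange) libraries. Wild type 1 is lowest in all panels, and cKO 2 has high H19 and Igf2 (59388 and 24300) with a marker sum of 8109.

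Other cell types also differed between the libraries. Summed red cell markers were 14809, 50387 and 35643 in wild type against 51879, 159772 and 376225 in cKO. All 10 red cell genes were in the table with none at 0 in any library, and wild type 1 was again the lowest library. Pigment epithelium markers summed to 1461, 7934 and 5744 in wild type against 10133, 7897 and 34399 in cKO, over 9 of 10 genes in the table and none at 0. Macrophage markers ran from 792 to 1511 in wild type against 2890 to 6246 in cKO, over 9 of 10 genes and none at 0. Endothelial markers ran from 4387 to 4735 and 3837 to 6202 over 12 genes, none at 0. Of these 12, 11 had a positive log2 difference, with a median of 1.40, and 5 were higher at an unadjusted p under 0.05, which the summed range does not show. The endothelial adhesion gene Pecam1, named after its values were seen, was 40.2, 226 and 213 in wild type against 617, 212 and 696 in cKO, with wild type 1 lowest. Muscle markers were low, at 126 to 247 and 175 to 565 over 11 of 12 genes. The defining factor Myod1 was at 0 in wild type 3, and Tnnc2 was at 0 in at least 1 library. Of 8 fitted muscle markers 7 had a positive log2 difference, with a median of 1.45. Lens markers ran from 785 to 202544 in wild type against 868 to 136356 in cKO, with wild type 1, cKO 1 and cKO 3 low and none of 15 genes at 0. The part of these cell types in the values of the imprinted genes was not tested.

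Igf2r, the receptor that clears IGF2 by carrying it to lysosomes, differed between the groups by less than its spread within them. It was 3048, 4627 and 4250 in wild type against 4469, 3322 and 4592 in cKO, with a log2 difference of 0.06 (SE 0.20). Airn, the noncoding RNA that runs antisense through Igf2r and silences it on the paternal copy, was 11.2, 79.9 and 24.2 in wild type against 62.5, 55.8 and 81.0 in cKO. Its low library was wild type 1, as for Igf2, and the groups overlapped. How the counting used strand is not given, so Airn and Igf2r reads in shared stretches may be mixed. The ratio of Igf2 to Igf2r was 1.06, 5.16 and 3.21 in wild type against 4.48, 7.31 and 5.41 in cKO.

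Genes of the insulin-like growth factor system outside the imprinted list gave no call. Of 25 listed genes, 23 were in the table and 21 were fitted. None passed limma over all genes, and the log2 differences ran from -3.38 to 1.68, with a median of 0.12. At an unadjusted p under 0.05, 3 were higher and 3 lower, or 28.6% beside 13.5% of all genes tested, and 23.8% did not overlap between the groups beside 22.4%. The 2 of smallest p were Stc2, a stanniocalcin that inhibits the protease that frees IGFs, and the binding protein gene Igfbp3. Stc2 was 221, 151 and 145 in wild type against 387, 266 and 371 in cKO, with an adjusted p of 0.289 by limma. Igfbp3 was 90.6, 191 and 219 in wild type against 752, 266 and 628 in cKO, with an adjusted p of 0.320 by limma. In both genes every cKO library lay above every wild-type one. The signalling receptor Igf1r was 8449 ± 978 and 7138 ± 1205, and the ligand gene Igf1 was 182, 357 and 109 in wild type against 284, 184 and 1135 in cKO, with cKO 3 alone high. The insulin receptor gene Insr was 4336, 3431 and 3779 in wild type against 3239, 2873 and 2818 in cKO. Every cKO library of Insr lay below every wild-type one, with an adjusted p of 0.329 by limma. Igf1r, Igf1 and Insr are named for their role, after their values were seen.

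Of the cluster of Dlk1, Meg3, Rian, Mirg and Rtl1, the noncoding Mirg set the groups apart. Dlk1 encodes a transmembrane protein related to Notch ligands, Meg3 a long noncoding RNA of the maternal copy, Rian a host of small nucleolar RNAs and Mirg a host of microRNAs. Mirg was 36.4, 40.4 and 35.8 in wild type against 66.5, 137 and 240 in cKO. The wild-type libraries were within 1.13-fold of each other, every cKO library lay above them, and the cKO libraries spanned 3.61-fold. Its log2 difference was 1.77 (SE 0.48), the highest of the 29 members, with an adjusted p of 0.312 by limma. It was 1.30 with wild type 1 and cKO 3 left out.

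The neighbours of Mirg overlapped between the groups. Meg3 was 2674, 1710 and 885 in wild type against 2471, 1968 and 5556 in cKO. Rian was 1989, 1644 and 760 in wild type against 1822, 2214 and 3692 in cKO. Dlk1, of the paternal copy, was 163, 94.0 and 44.0 in wild type against 153, 135 and 477 in cKO. All 3 were lowest in wild type 3 and highest in cKO 3. The ratio of Meg3 to Dlk1 ran from 11.7 to 20.1 and that of Meg3 to Rian from 0.889 to 1.5. The ratio of Mirg to Meg3 spanned 5.09-fold, from 0.0136 in wild type 1 to 0.0694 in cKO 2, and overlapped between the groups. Rtl1, a retrotransposon-derived gene needed in the placenta, was low at 9.87 to 16 in wild type against 11.1 to 22.1 in cKO. Rtl1 has antisense transcripts, so its values are uncertain.

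**Figure D4:**
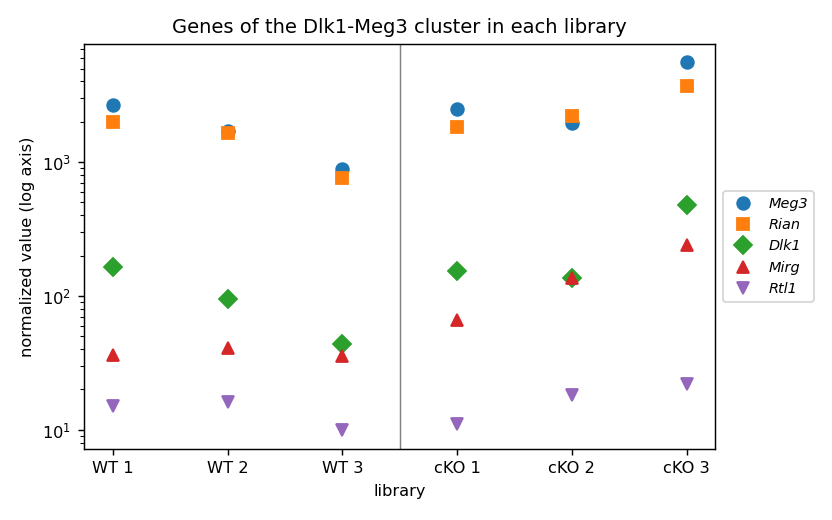
Points are normalized values on a log axis for the 5 genes of the cluster in 3 wild-type libraries (left of the line) and 3 Tbx3 cKO libraries (right). Mirg lies at 35.8 to 40.4 in wild type against 66.5 to 240 in cKO, while the other 4 genes overlap between the groups.

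Plagl1 and Grb10 both had negative log2 differences. Plagl1 encodes a zinc finger transcription factor that holds back proliferation and is known to act on other imprinted genes. It was 28308, 26802 and 31078 in wild type against 21721, 14582 and 5216 in cKO. The wild-type values lay within 1.16-fold, every cKO library was below them, and cKO 3 was far lower than the other cKO libraries. The log2 difference was -1.28 (SE 0.47), and -0.69 without cKO 3 (-0.70 with wild type 1 also left out). The sum of progenitor markers was also lowest in cKO 3, with 215003, 158889 and 179317 in wild type against 150816, 138734 and 62825 in cKO. None of these 12 markers was at 0 in any library, but single markers differed in sign, with 9 negative and 3 positive log2 differences. Of 2 named after their values were seen, Lhx2 was 4588 ± 293 in wild type and 8446 ± 1139 in cKO, and Pax6 was 18426 ± 411 and 18496 ± 387 (SD, n = 3 each). The sum thus does not stand for every marker. The ratio of Plagl1 to that sum was 0.132, 0.169 and 0.173 in wild type against 0.144, 0.105 and 0.083 in cKO, so the groups overlapped at cKO 1. The part of progenitor cells in the Plagl1 values was not tested further. Grb10, an adaptor that inhibits the insulin and IGF receptors, was 37587, 44494 and 46175 in wild type against 31301, 35868 and 38413 in cKO. Only cKO 3 reached into the wild-type range, and the log2 difference was -0.28 (SE 0.14).

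A short GC-rich word known from Plagl1 binding, GGGGCCCC, which reads the same on both strands, was searched in RefSeq promoter windows (GRCm38.p6) from 250 bases before to 50 after each start. The windows covered 26 members. Of 43 windows 2 held it, those of Peg3 and Usp29, and both windows contain the same 1 site. Of all 32851 windows, 1.08% held it. No binding was measured.

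Nnat and Peg13, both paternally expressed, were highest in wild type 1, as were Snrpn, Magel2 and Ndn. These 5 are set together here after their values were seen, and other paternally expressed genes, such as Peg3 and Impact, were lowest in that library. Nnat encodes neuronatin, a small membrane protein of the endoplasmic reticulum, and Peg13 a noncoding RNA. Nnat was 12779, 3893 and 4126 in wild type against 3460, 2832 and 2975 in cKO. Peg13 was 3214, 1028 and 1148 in wild type against 934, 765 and 835 in cKO. In both, wild type 1 was far above the next library and every cKO library lay below every wild-type one. The ratio of Nnat to Peg13 ran only from 3.56 to 3.98 over the 6 libraries. Their log2 differences were -0.94 (SE 0.43) and -0.89 (SE 0.41), and -0.38 and -0.37 without wild type 1. Peg13 lies within another gene, and reads of that gene may be mixed in.

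Genes of the Snrpn and Ndn cluster shared the high value of wild type 1. Snrpn, which encodes a splicing protein of neurons, was 2261, 1059 and 1063 in wild type against 1043, 1124 and 1090 in cKO. Outside wild type 1 the 5 libraries lay between 1043 and 1124. Magel2, a regulator of protein sorting, was 354, 98.7 and 126 in wild type against 167, 106 and 103 in cKO. Ndn, a related gene of differentiating neurons, was 5067, 3288 and 3579 in wild type against 3216, 3039 and 3235 in cKO. Its cKO values were all below wild type, by a narrow margin against wild type 2. Without wild type 1 the sign turned for Snrpn and Magel2, while that of Ndn stayed negative.

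Summed neuron markers were also highest in wild type 1, and every cKO library lay below every wild-type one. All 16 markers had a negative log2 difference, with a median of -3.49, and none passed limma over all genes. At an unadjusted p under 0.05 by limma 12 were lower, beside 7.16% of all genes. The groups did not overlap for 11, all lower, beside 11.7% of all genes. Their summed value was 152482, 29614 and 49102 in wild type against 23976, 12690 and 2474 in cKO, over 16 genes of which only Pou4f2 was at 0, in at least 1 library. Against that sum the genes did not keep a constant ratio: Nnat was 0.0838, 0.131 and 0.0840 of it in wild type against 0.144, 0.223 and 1.2 in cKO. In cKO 3, where the markers were lowest, Nnat, Peg13, Snrpn and Magel2 lay near the values of the other cKO libraries. The part of neurons in these values was not tested further.

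**Figure D5:**
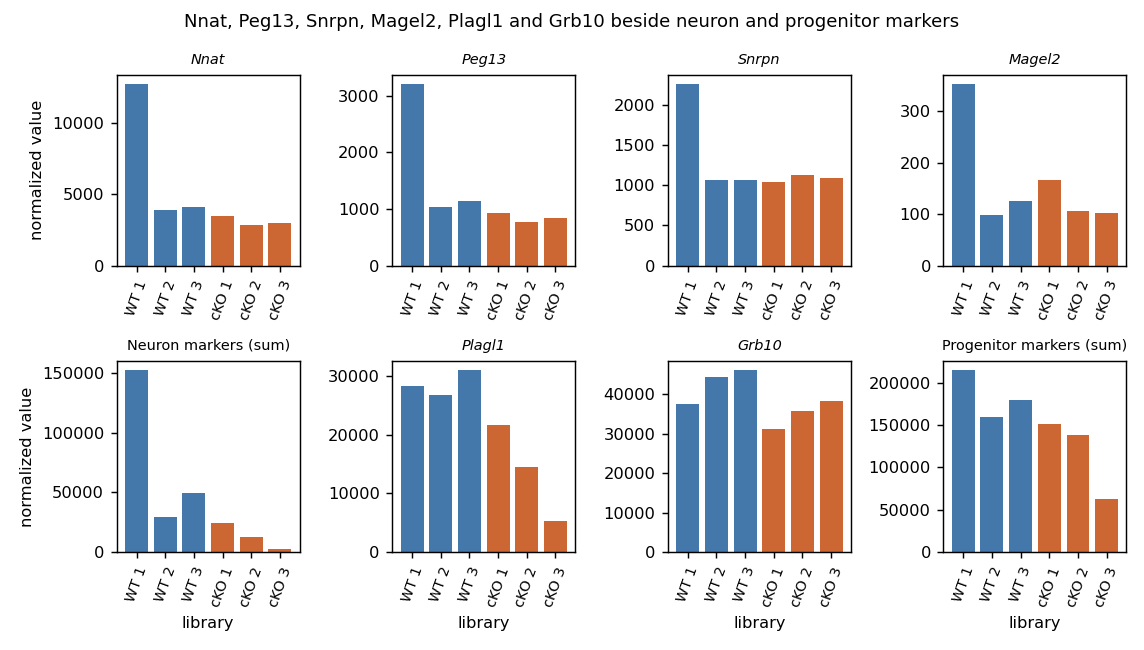
Bars are normalized values in 3 wild-type (blue) and 3 Tbx3 cKO (orange) libraries, for 6 imprinted genes and for summed neuron and progenitor markers. Nnat, Peg13, Snrpn and Magel2 are highest in wild type 1, and Plagl1 is 21721, 14582 and 5216 in the cKO libraries.

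Peg3 and Usp29, transcribed away from each other from starts in 1 short stretch, did not keep a constant ratio. Peg3 encodes a zinc finger protein and Usp29 a ubiquitin protease, both from the paternal copy. Peg3 was 7357, 10215 and 9580 in wild type against 9818, 8557 and 16990 in cKO, with cKO 3 alone high. Usp29 was 671, 427 and 461 in wild type against 437, 254 and 364 in cKO, with wild type 1 alone high and the groups overlapping. Their log2 differences were 0.33 (SE 0.27) and -0.57 (SE 0.26), neither passed limma over all genes, and that of Peg3 was 0.03 without cKO 3. With wild type 1 and cKO 3 left out both were negative, at -0.11 and -0.41. The ratio of Peg3 to Usp29 was 11, 23.9 and 20.8 in wild type against 22.4, 33.7 and 46.7 in cKO, a 4.26-fold span. Zim1, a zinc finger gene of the maternal copy in the same cluster, was 67.2, 109 and 72.7 in wild type against 63.5, 127 and 166 in cKO.

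The 96 bases between the RefSeq bounds of Peg3 and Usp29 are shown because both genes are read outward from them. They lie at chr7:6730463-6730558 (GRCm38.p6, plus strand), Usp29 is read along the plus strand and Peg3 along the minus strand, and capitals mark the word CCAAT.
Peg3-Usp29: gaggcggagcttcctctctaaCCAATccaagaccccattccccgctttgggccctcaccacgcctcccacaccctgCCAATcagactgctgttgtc
CCAAT was searched on both strands, with 2 matches on the plus strand and 0 on the other. Of the 96 bases before the start in all 32851 windows, 18.3% hold at least 1 match and 3.28% hold at least 2. No factor binding was measured.

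Asb4, the maternally expressed gene listed from the Peg10 and Sgce cluster, was also lowest in wild type 1. Asb4, which encodes an ankyrin repeat protein with a SOCS box, was 28.0, 102 and 73.6 in wild type against 153, 92.2 and 227 in cKO. Only cKO 2 fell within the wild-type range, and the log2 difference was 1.30 (SE 0.55), or 0.77 without wild type 1. The ratio of Asb4 to the summed mesenchyme markers ran from 0.00682 to 0.0114, a 1.67-fold span, the narrowest of those computed. The span was 2.27-fold for Airn, 3.26-fold for Igf2, 3.79-fold for H19, 4.35-fold for Mest and 6.68-fold for Meg3. No other member was set against that sum. Peg10, a retrotransposon-derived gene of the placenta, was 2703, 2403 and 2328 in wild type against 2646, 1769 and 3500 in cKO. Its neighbour Sgce, which encodes epsilon-sarcoglycan, was 548 ± 138 and 529 ± 58.0 (SD, n = 3 each). Their log2 differences were 0.04 (SE 0.24) and -0.03 (SE 0.20). Mest, a gene of mesoderm with a hydrolase fold, was 11912, 23925 and 22299 in wild type against 25934, 28627 and 21731 in cKO. Wild type 1 was again low and cKO 3 lay below wild type 2 and 3.

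In the Kcnq1ot1 domain the silencing RNA was at 1829 or more in every library, and 3 protein-coding genes of the domain were at 21.1 or less in every library. Kcnq1ot1 was 1829, 2310 and 2439 in wild type against 2630, 2648 and 3238 in cKO. Every cKO library was above every wild-type one, and the log2 difference was 0.38 (SE 0.15), with an adjusted p of 0.353 by limma. Kcnq1ot1 runs antisense through Kcnq1, so reads of the shared stretch are uncertain. Phlda2, which restrains placental growth, was 0.934, 1.88 and 0.897 in wild type against 0, 5.69 and 8.42 in cKO. The transporter gene Slc22a18 was 0.934, 1.88 and 0 in wild type against 0, 0 and 17.9 in cKO. Ascl2, a trophoblast transcription factor gene, was at 0 in all wild-type libraries and at 18.1, 0 and 21.1 in cKO. Values up to 3.41 are within what a count of 0 allows. Above that lay only cKO libraries, cKO 2 and cKO 3 for Phlda2, cKO 3 for Slc22a18 and cKO 1 and cKO 3 for Ascl2, and in all 3 genes at least 1 cKO library was at 0. Cdkn1c, a cyclin-dependent kinase inhibitor of the same domain that is not on the list of 32, was 3347, 7174 and 5322 in wild type against 8561, 8934 and 7586 in cKO. Its wild type 1 value was lowest too, the groups did not overlap, and the adjusted p was 0.341 by limma.

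The remaining single genes had log2 differences between -0.42 and 0.47. Impact, a regulator of translation, was 1201, 1326 and 1308 in wild type against 1360, 1596 and 2558 in cKO, with cKO 1 just above the wild types. Zdbf2, a zinc finger gene, was 3798, 5212 and 5447 in wild type against 4031, 3399 and 3283 in cKO, with a log2 difference of -0.42 (SE 0.16), for which limma gave an adjusted p of 0.351. It overlapped through wild type 1. Gnas, which encodes the stimulatory G protein alpha subunit, was 21297, 21560 and 21046 in wild type against 19861, 19798 and 21010 in cKO. Its cKO values lay below wild type, with a fold difference of 1.05 between the means. Gnas has several imprinted promoters, which values per gene do not separate. The amino acid transporter gene Slc38a4 was lowest in wild type 1, at 500 against 690 to 1194 in the other 5. Nap1l5, a nucleosome assembly protein gene inside an intron of another gene, was high in wild type 1 (166) and cKO 3 (261) and between 50.2 and 68.3 in the other 4.

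Imprinted genes outside the list, and genes listed for acting on imprints, gave no call either. Of 55 other imprinted genes 48 were in the table and 39 were fitted, with a median log2 difference of -0.01 and a range of -0.992 to 3.34. None passed limma over all genes, and 6 were higher (6.39% of all genes) and 3 lower (7.16%) at an unadjusted p under 0.05, or 23.1% beside 13.5% of all genes tested. The groups did not overlap for 12 of 39 (30.8%), beside 22.4% of all genes tested. Their log2 differences were positive for 19 and negative for 20, and they were not split by parental copy. The 2 of smallest p were Ube3a, a ubiquitin ligase gene, at 5218 ± 882 and 3782 ± 252, and Cdkn1c. Ube3a was lower in every cKO library, with a log2 difference of -0.45, and Cdkn1c was higher. A further list of 16 holds genes that bind imprinted control regions or act on DNA methylation or chromatin. Cdkn1c, itself an imprinted gene, is also on it. Of the 16, 13 were fitted and none passed limma. At an unadjusted p under 0.05, 1 was higher (Cdkn1c, already counted among the other imprinted genes) and 2 lower, or 23.1% beside 13.5% of all genes tested. The groups did not overlap for 30.8%, Cdkn1c included, beside 22.4%, and the median was -0.10. The 2 of smallest p were Ctcf, the insulator protein that binds the H19 control region, and Smchd1, a chromatin protein of silent genes. Ctcf was 5922, 5106 and 5316 in wild type against 4505, 4662 and 4390 in cKO, with an adjusted p of 0.338 by limma. Smchd1 was 4258 ± 156 and 3378 ± 371, with an adjusted p of 0.329 by limma. In both genes every cKO library was below every wild-type one.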

How the data were processed

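Strand-specific libraries of polyadenylated RNA came from 3 wild-type and 3 Tbx3 cKO retina samples. The submitters' processing notes name STAR 2.7.8a, cutadapt 4.2, the Partek software and the build GRCm39 (mm39), with no roles. For the counter, annotation, use of strand and scaling, the method is not given in the sources used here. Deposited was a signal, taken as read counts per gene that the authors divided by a factor per library, as judged from the values: low ones are mostly multiples of a step of 0.897 to 1.14. Of these, 81.6 to 83.8% lay within 0.1 steps of a multiple, so whole reads were not recovered. No symbol is given for 108 genes, which make up 0.041% of all values.

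Genes with a minimum of 10 in 3 or more libraries were fitted as log2(value + 1) with limma-trend (limma 3.58.1, R 4.3.3), as a two-sided test, Benjamini-Hochberg adjusted over all 18914 genes and a threshold of 0.05. The pseudocount makes log2 differences of low genes too small. The fit was tested on simulated counts with a fixed, small spread and no differences in cell types. That test cannot show how many changes would be missed at the spread of these libraries. Levels are mean ± SD. The members, lists and tests were chosen with earlier results of these data known. Named were all members, Tbx3 and the 2 genes of smallest p in each pathway list. Single cell type markers, Igf1, Igf1r and Insr were named after their values were seen. The 17 alternatives covered pseudocount, filter, normalization, the moderation of variances, library weights, the replicate block and left-out libraries. Sequences came from RefSeq tables of GRCm38.p6, which is not the build of the data.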

Additional observations from a re-analysis of the deposited data

How the results depend on the processing

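No imprinted gene passed an adjusted p of 0.05 in the main fit or in any of the 17 alternatives, in which the lowest adjusted p of a member was 0.15, and no gene of the other imprinted, IGF or imprint maintenance lists did. Of the 29 fitted members 21 kept the sign of their log2 difference in all alternatives that fitted them, and 8 changed it in at least 1 (Igf2r, Peg3, Magel2, Snrpn, Peg10, Sgce, Nap1l5 and Slc38a4). H19 ranged from 0.61 to 1.96, Igf2 from 0.29 to 1.79, Mirg from 1.30 to 2.24 and Plagl1 from -1.72 to -0.69. Over all genes, 12 were called in the main fit, 2 with no intensity trend, 55 with library weights, 36 on leaving out both wild type 1 and cKO 3, and 1 to 10 with single libraries left out (1 without any library but Tbx3 cKO 3). Members above wild type without overlap numbered 5 with quantile normalization, 9 on leaving out that pair and 3 to 8 with single libraries left out. Members below numbered 3 with equal totals, 8 without the pair and 5 to 8 with single ones left out. For these alternatives the share over all genes was not counted, so the member counts cannot be set against a background. The median log2 difference of all members was 0.0323 to 0.428 with single libraries left out, lowest without Tbx3 cKO 3. That of maternally expressed genes was 0.489 to 1.22, lowest without wild type 3, and that of paternally expressed genes -0.087 to 0.132, and -0.0276 with a minimum value of 50. The replicate block called 13 genes and no member. Whether the numbers pair the libraries is not stated. Same-numbered ones had deviations correlated at 0.33, the highest of all pairs, 0.018 and 0.042, and not every library correlated best with its own number. With 3 libraries per group these correlations cannot exclude a pairing. Phlda2, Slc22a18 and Ascl2 were left out of the main fit by the filter, and depth limits their values of up to 3.41, which a count of 0 allows.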
